A study of Drosophila melanogaster with 8 samples.

Results

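Cytosolic ribosomal protein genes were taken as the genes whose symbol begins with RpL (large subunit) or RpS (small subunit). A gene was a member where a probe set, a group of short probes read as 1 value, named that gene and no other, and the probe set with the highest mean intensity stood for it. The rule gave 41 members, 25 RpL and 16 RpS, of the 11982 genes measured in this way. The RefSeq gene table lists 92 genes with such symbols, so 44.6% of the class was measured and the other 51 were not analysed here. Ribosomal proteins join ribosomal RNA in the subunits that translate every mRNA, and a growing cell spends much of its transcription and translation on them. In Drosophila their genes share a pyrimidine-rich start site, the TCT initiator, and their mRNAs are translated under the control of the kinase Tor. Loss of 1 copy of many of them gives the Minute phenotype of slow growth and short bristles, and cells with that defect are outcompeted by wild-type neighbours.

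The 8 arrays came from S2, a Drosophila melanogaster line derived from embryos and like blood cells in its features, and formed 4 groups of 2. The groups were dSTING RNAi cells given a double-stranded DNA of 90 nucleotides (dsDNA), dSTING RNAi cells mock transfected with lipofectamine alone, control cells given the dsDNA, and control cells mock transfected. Every group, the controls included, had first been transfected with double-stranded RNA, aimed at dSTING in the RNAi groups and non-specific in the controls, 3 days before the second transfection, and was lysed 24 hours after it. Sting encodes the fly homologue of STING, a receptor for cyclic dinucleotides. The genotype tag of 4 samples follows the DNA and not the RNAi, so groups were taken from the titles.

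Sting intensity was 3.45 to 8.05 on the 4 dSTING RNAi arrays, against 48.7 to 53.1 on the 4 control arrays, which follows the titles on every array. Of 10 hemocyte markers, 6 (srp, crq, NimC1, drpr, Col4a1 and vkg) lay above a mean log2 level of 3, while Hml, Pxn, eater and He did not. None of 4 germline, 3 muscle, 4 neuronal and 3 fat body markers did. dSTING RNAi dsDNA array 2 and control mock array 2 stood at opposite ends of the first principal component of the probe sets above that level (-12.51 and 12.23), which held 52.1% of their variance. Levels are log2(intensity + 1), differences are on that scale, and the arrays share a floor at an intensity of 1. Whether a group's arrays stem from separate cultures is not said in the labels, so a p-value measures only the spread between these arrays, and their number limits the precision. In bulk RNA, fewer cells and less RNA per cell cannot be told apart.

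Most measured ribosomal protein genes were bright. Of the 41 members, 33 (80.5%; 22 RpL and 11 RpS) had a mean level above 3, and 29 had a mean intensity above 500. RpL41, which encodes a very short basic peptide of the large subunit, had a mean intensity of 4388, the stalk gene RpLP2 3650, and the small-subunit gene RpS7 3585. The rule took each gene's brightest probe set, and of all 11982 genes taken in the same way 29.6% had a mean level above 3. Of the 6 other probe sets that named a member, 5 had a mean intensity between 1.05 and 6.44. Probe sets differ in sensitivity, so these values do not rank the genes by transcript amount. The other 8 members (RpL10Aa, RpL22-like, RpL37-2, RpS5b, RpS10a, RpS19b, RpS28a and RpS28-like) did not exceed an intensity of 3.68 on any array. The level of 3 fell in a wide gap, since the nearest members on either side were RpLP0-like at 4.78 and RpS5b at 2.12. In the plot of intensity by array, each gene's 8 values sit close together beside the distance between genes.

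**Figure D1:**
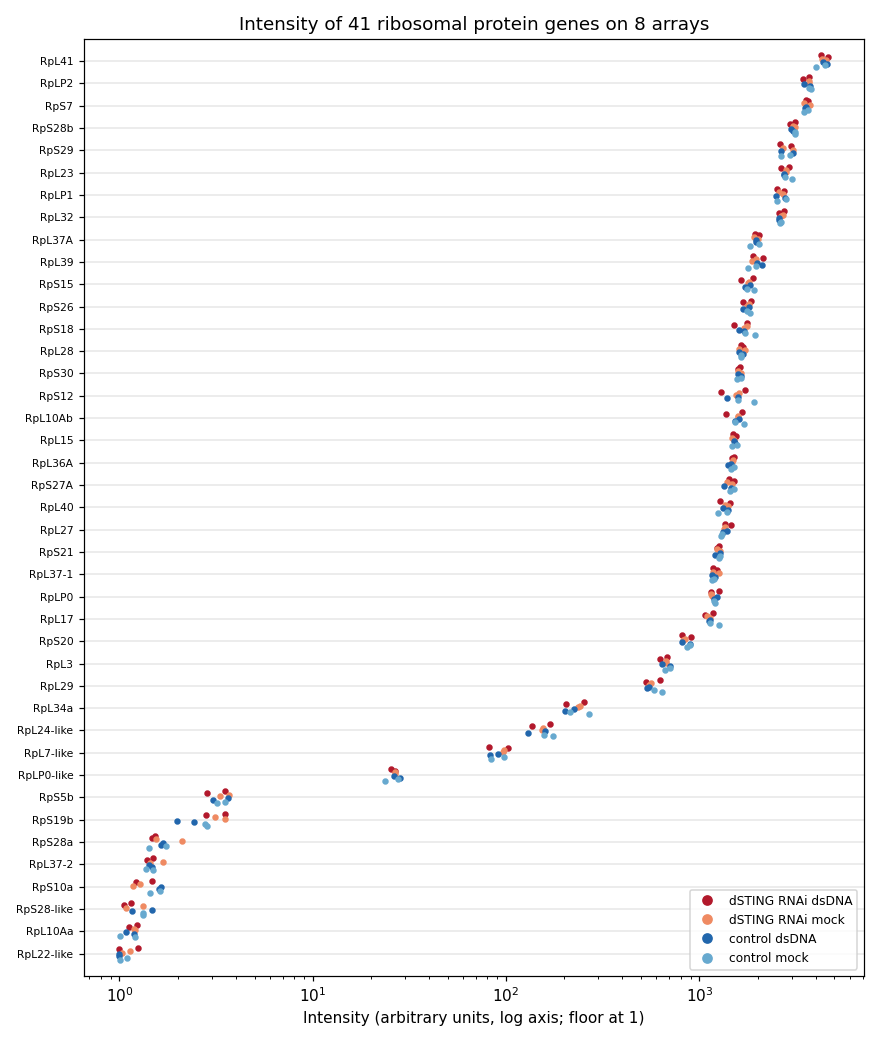
Intensity (log axis) of the 41 members on each array, with 1 row per gene, ordered by mean level, and 1 dot per array coloured by group. The 29 genes with a mean above 500 form narrow clusters of dots, and 8 genes lie below 3.68 on all arrays.

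No ribosomal protein gene passed the threshold after dSTING knockdown, with or without dsDNA. Sting itself did not pass either, at -2.82 with dsDNA, -3.15 in mock cells and -2.99 on their mean. The smallest limma adjusted p of any probe set was 0.901, 0.367 and 0.121 in these contrasts. A count of 0 at this threshold therefore does not show that the members were unchanged. In dsDNA-treated cells, dSTING RNAi against control, 0 of 41 members passed an adjusted limma p of 0.05 (0% of all probe sets did), and 1 had an unadjusted p under 0.05 (RpS19b; 4.51% of all). The median difference was 0.007 for the members and 0.000 for all probe sets. The 33 brighter members lay between -0.06 for RpLP0-like and 0.10 for RpL34a. In mock-transfected cells, 0 of 41 passed (0% of all), 1 had an unadjusted p under 0.05 (RpS10a; 4.72% of all), and the median was -0.007. There the brighter members lay between -0.15 for RpS12 and 0.10 for RpL7-like.

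On the mean of the dsDNA and mock comparisons (4 arrays per side), 0 of 41 members passed in limma for dSTING RNAi against control (0% of all probe sets), and 2, RpS10a and RpS19b, had an unadjusted p under 0.05 (4.76% of all). The median was 0.000, with 21 members higher and 20 lower. For the 33 brighter members the 95% intervals of the mean knockdown difference stayed between -0.36 and 0.32. Groups that did not overlap were counted as a description. With dsDNA, 3 members were higher on both RNAi arrays than on both control arrays (7.32%, against 12.2% of all probe sets) and 3 were lower on both (7.32%, against 11.9%). In mock cells the counts were 2 higher (4.88%, against 13.3% of all) and 6 lower (14.6%, against 15.6%). The 2 were RpL27 and RpS19b, and the 6 were RpL17, RpL24-like, RpL29, RpLP0, RpS10a and RpS20. Over all 8 arrays no member separated the 4 RNAi from the 4 control arrays, where 1.06% of all probe sets did so upward and 1.25% downward.

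After dsDNA transfection, likewise, no ribosomal protein gene passed the threshold. In control cells, dsDNA against mock, 0 of 41 members passed the adjusted limma threshold (0% of all probe sets) and 0 had an unadjusted p under 0.05 (5.25% of all). The median was -0.026 for the members and 0.000 for all probe sets. For the 33 brighter members it was -0.033, against -0.028 for all 4189 probe sets above a level of 3. The brighter members ran from -0.23 for RpS12 to 0.12 for RpL39. In dSTING RNAi cells 0 passed (0% of all), 0 had an unadjusted p under 0.05 (4.37% of all), and the median was -0.015. There 21 of the 33 brighter members were lower (63.6%, against 47.9% of all probe sets above 3). Their median was -0.011, against 0.005 for those probe sets. Averaged over control and RNAi cells, 0 passed (0% of all), 0 had an unadjusted p under 0.05 (5.38% of all), and 27 of 41 members were lower (65.9%, against 49.9% of all probe sets), with a median of -0.022. Of the 33 brighter members 21 were lower (63.6%, against 54% of all probe sets above 3). The 95% intervals of the 33 brighter members stayed between -0.45 and 0.24 for this mean dsDNA difference.

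In control cells, 8 members were lower on both dsDNA arrays than on both mock arrays (19.5%, against 15.6% of all probe sets): RpL17, RpL22-like, RpL23, RpL29, RpL32, RpS18, RpS19b and RpS28b. Only RpL27 and RpL39 were higher on both (4.88%, against 13.7%). In dSTING RNAi cells 1 member, RpS28a, was lower on both dsDNA arrays (2.44%, against 13.3% of all) and 0 were higher (13.2% of all). Over all 8 arrays 0 members separated dsDNA from mock, against 1.11% of all probe sets upward and 1.34% downward. The interaction, the dsDNA difference in RNAi cells minus that in control cells, passed for 0 of 41 members in limma (0% of all), with 0 at an unadjusted p under 0.05 (4.19% of all). Its median was 0.003, and the smallest unadjusted p belonged to RpL29, at 0.22 (SE 0.13, limma adjusted p = 1). With each array left out in turn that value lay between 0.10 and 0.34, at 0.34 without dSTING RNAi dsDNA 2 and 0.15 without control mock 2, and it was 0.27 without both. These comparisons share arrays with one another, so their values are not independent.

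Set against the 4189 probe sets above a level of 3, the 33 brighter members gave no result past the threshold. None of the 33 had an unadjusted limma p under 0.05 in any contrast. Of the probe sets above 3, that share was 3.15% for the knockdown with dsDNA, 3.46% for the knockdown in mock cells and 4.27% for the mean knockdown. It was 5.56% for dsDNA in control cells, 3.01% for dsDNA in RNAi cells, 6.83% for the mean dsDNA difference and 2.27% for the interaction. Between RNAi and control dsDNA cells, 2 brighter members were higher without overlap (6.06%, against 10.6%) and 0 lower (5.63% of those probe sets). Between RNAi and control mock cells, 1 was higher (3.03%, against 9.67%) and 5 lower (15.2%, against 20.9%). Between dsDNA and mock control cells, 2 were higher (6.06%, against 9.57%) and 6 lower (18.2%, against 23.9%), so the lower side was the more common one among the brighter probe sets as a whole. Between dsDNA and mock RNAi cells, 0 were higher (11.6% of those probe sets) and 0 lower (11.1%). Over all 8 arrays 0 separated for either factor, where 0.836% of the probe sets above 3 separated upward and 1.22% downward for the knockdown, and 0.859% and 2.2% for dsDNA.

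**Figure D2:**
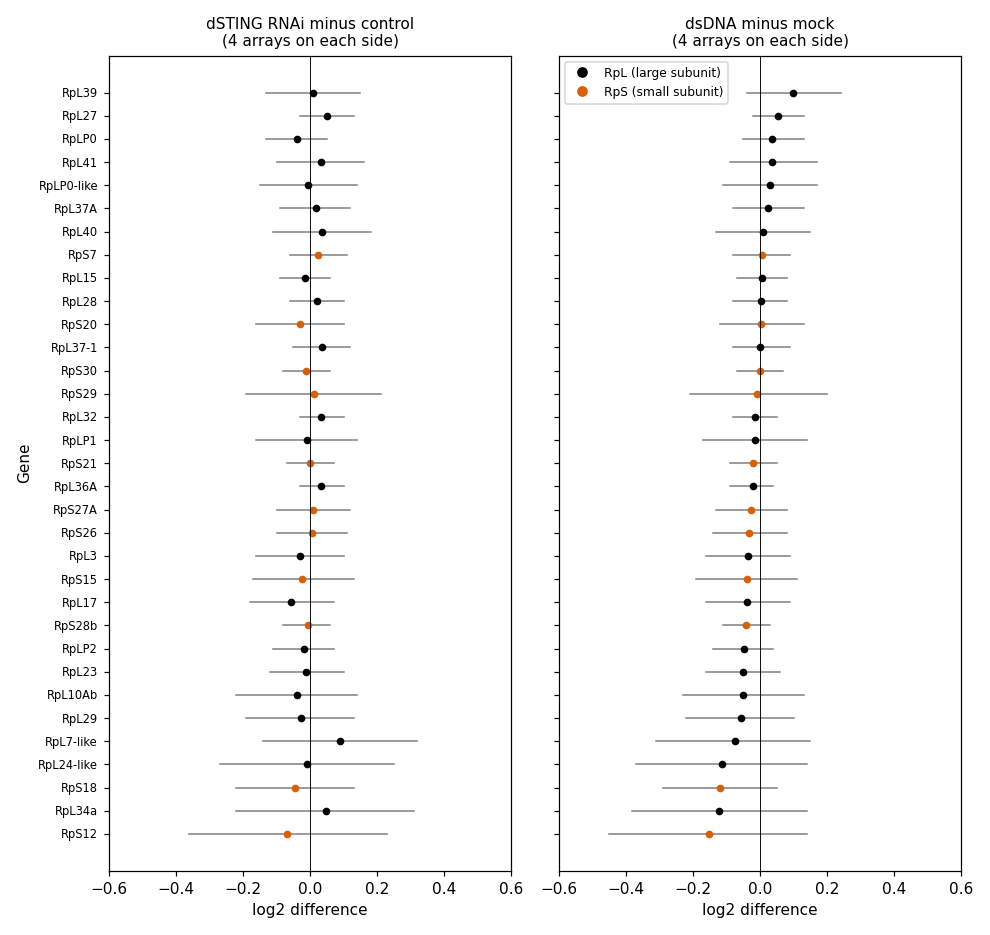
Difference in log2(intensity + 1) of the 33 brighter members for dSTING RNAi minus control (left) and dsDNA minus mock (right), as points with 95% limma intervals, RpL in black and RpS in orange. All intervals include 0, and the points lie between -0.07 and 0.09 on the left and between -0.15 and 0.10 on the right.

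Among the core proteins of the large subunit, RpL32 is widely used in fly work as a reference gene under its older name rp49. Its intensities were 2739 and 2591 in dSTING RNAi dsDNA cells, 2698 and 2637 in dSTING RNAi mock cells, 2597 and 2574 in control dsDNA cells, and 2649 and 2616 in control mock cells. The highest over lowest ratio was 1.06, the RNAi arrays overlapped the control arrays and the dsDNA arrays the mock arrays, and its pooled within-group SD (0.031 on the log2 scale) was the joint lowest of the 33 brighter members, with RpL36A. The mean knockdown difference was 0.03 (SE 0.03) and the mean dsDNA difference -0.01 (SE 0.03), both with limma adjusted p above the threshold (0.993 and 0.926). RpL36A had intensities of 1518 and 1468 in dSTING RNAi dsDNA cells, 1496 and 1480 in dSTING RNAi mock cells, 1454 and 1410 in control dsDNA cells, and 1511 and 1453 in control mock cells. Its 2 RNAi dsDNA arrays lay above both control dsDNA arrays by 0.06 (SE 0.04, limma adjusted p = 1).

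RpL39, a small protein that lines the exit tunnel of the growing peptide, was the brighter member with the highest mean dsDNA difference. It read 1902 and 2143 in dSTING RNAi dsDNA cells, 1964 and 1865 in dSTING RNAi mock cells, 1975 and 2097 in control dsDNA cells, and 1960 and 1793 in control mock cells. The highest and lowest arrays were the same 2 that stood apart, dSTING RNAi dsDNA 2 and control mock 2, and the dsDNA and mock arrays overlapped. Its dsDNA mean was 2029 and its mock mean 1895, a difference of 0.10 (SE 0.06, limma adjusted p = 0.894), which was 0.02 without those 2 arrays. RpL27 had the same extremes, with 1356 and 1453 in dSTING RNAi dsDNA cells, 1358 and 1345 in dSTING RNAi mock cells, 1388 and 1324 in control dsDNA cells, and 1307 and 1301 in control mock cells.

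Other large-subunit genes leaned the other way on the same arrays. RpL29 read 625 and 529 in dSTING RNAi dsDNA cells, 562 and 547 in dSTING RNAi mock cells, 551 and 538 in control dsDNA cells, and 582 and 639 in control mock cells. Both control dsDNA arrays lay below both control mock arrays, with a difference of -0.16 (SE 0.09, limma adjusted p = 0.912). That difference was -0.10 without the 2 arrays that stood apart. Both dSTING RNAi mock arrays also lay below both control mock arrays, at -0.14 (SE 0.09). RpL17, which also lines the exit tunnel, read 1177 and 1072 in dSTING RNAi dsDNA cells, 1090 and 1129 in dSTING RNAi mock cells, 1129 and 1118 in control dsDNA cells, and 1137 and 1266 in control mock cells. Its highest array was control mock 2. RpL34a was the most variable large-subunit member, at 254 and 205 in dSTING RNAi dsDNA cells, 241 and 235 in dSTING RNAi mock cells, 223 and 201 in control dsDNA cells, and 215 and 269 in control mock cells, with a pooled SD of 0.167.

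The stalk proteins RpLP0, RpLP1 and RpLP2 form the flexible arm of the large subunit that recruits and activates translation factors. RpLP0 averaged 1200 ± 78.9 in dSTING RNAi dsDNA cells, 1151 ± 10.7 in dSTING RNAi mock cells, 1214 ± 23.4 in control dsDNA cells and 1201 ± 9.84 in control mock cells (SD, n = 2 each). RpLP1 averaged 2622 ± 162 in dSTING RNAi dsDNA cells, 2647 ± 102 in dSTING RNAi mock cells, 2638 ± 210 in control dsDNA cells and 2665 ± 189 in control mock cells. RpLP2 averaged 3569 ± 165 in dSTING RNAi dsDNA cells, 3687 ± 11.6 in dSTING RNAi mock cells, 3609 ± 179 in control dsDNA cells and 3736 ± 81.8 in control mock cells. None of these 3 genes passed the limma threshold, and the mean knockdown differences lay between -0.04 and -0.01. The mean dsDNA differences lay between -0.05 and 0.04.

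A further 3 genes encode a ribosomal protein joined to ubiquitin (RpL40 and RpS27A, whose mRNAs so add to the ubiquitin pool) or to a ubiquitin-like protein (RpS30). RpL40 averaged 1363 ± 111 in dSTING RNAi dsDNA cells, 1384 ± 39.8 in dSTING RNAi mock cells, 1362 ± 60.8 in control dsDNA cells and 1322 ± 98.1 in control mock cells (SD, n = 2 each). RpS27A averaged 1463 ± 57.3 in dSTING RNAi dsDNA cells, 1436 ± 55.7 in dSTING RNAi mock cells, 1401 ± 83.5 in control dsDNA cells and 1483 ± 47.8 in control mock cells. RpS30 had the smallest relative range of the 33 brighter members, from 1574 to 1652. All 3 had mean differences between -0.03 and 0.03 for both factors, and none passed the limma threshold.

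Of the small-subunit genes, RpS12, which in Drosophila is needed for cells with a ribosomal protein defect to be recognised in cell competition, had the largest pooled SD of all members (0.188). It read 1730 and 1297 in dSTING RNAi dsDNA cells, 1599 and 1555 in dSTING RNAi mock cells, 1590 and 1396 in control dsDNA cells, and 1589 and 1919 in control mock cells. Its highest array was control mock 2 and its lowest dSTING RNAi dsDNA 2, and the other 6 lay between 1396 and 1730. The mean dsDNA difference was -0.15 (SE 0.12, limma adjusted p = 0.894) and 0.02 without those 2 arrays. The dsDNA difference in control cells was -0.23 (SE 0.17), and -0.09 without control mock 2. The groups of RpS12 overlapped in every comparison.

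RpS18, a protein of the small-subunit head, read 1764 and 1510 in dSTING RNAi dsDNA cells, 1758 and 1709 in dSTING RNAi mock cells, 1594 and 1697 in control dsDNA cells, and 1718 and 1950 in control mock cells. Both control dsDNA arrays were below both control mock arrays, at -0.15 (SE 0.10, limma adjusted p = 0.912), which was -0.06 without the 2 arrays that stood apart. RpS21, whose loss makes larval blood-forming organs overgrow in flies, averaged 1250 ± 14.9 in dSTING RNAi dsDNA cells, 1256 ± 30.4 in dSTING RNAi mock cells, 1239 ± 53.6 in control dsDNA cells and 1267 ± 11.6 in control mock cells (SD, n = 2 each). These means lay within the spread of the arrays, and the mean knockdown difference was 0.00 (SE 0.03). RpS28b had the smallest SD in this subunit (0.036) and ranged from 2937 to 3133.

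The 3 genes named as ribosomal-protein-like but bright enough to measure, RpL7-like, RpL24-like and RpLP0-like, resemble yeast proteins (Rlp7, Rlp24 and Mrt4) that act in assembly of the large subunit rather than in the finished ribosome. RpL24-like read 170 and 136 in dSTING RNAi dsDNA cells, 155 and 153 in dSTING RNAi mock cells, 158 and 129 in control dsDNA cells, and 156 and 175 in control mock cells. RpL7-like read 81.6 and 102 in dSTING RNAi dsDNA cells, 98.2 and 96.6 in dSTING RNAi mock cells, 91 and 82.8 in control dsDNA cells, and 97.7 and 83.8 in control mock cells. RpLP0-like averaged 26.1 ± 0.91 in dSTING RNAi dsDNA cells, 26.6 ± 0.142 in dSTING RNAi mock cells, 27.4 ± 1.31 in control dsDNA cells and 25.7 ± 2.87 in control mock cells (SD, n = 2 each). The groups of these 3 genes overlapped in every comparison except RpL24-like in mock cells, where both RNAi arrays lay below both control arrays, and none passed the limma threshold in any contrast.

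The 8 dim members are copies of ribosomal protein genes, several of which (RpS5b, RpS10a, RpS19b and RpL22-like) are known in flies for expression mainly in the germline. The germline markers vas, bam, aub and osk had mean intensities of 1.12, 1.11, 1.3 and 1.19. In 3 families a bright copy was measured as well: RpL10Ab (mean intensity 1567) beside RpL10Aa (1.15), RpL37-1 (1198) beside RpL37-2 (1.47), and RpS28b (3062) beside RpS28a (1.64) and RpS28-like (1.23). These are signals of separate probe sets, and probe sets for near-identical copies may share transcripts, so transcript amounts cannot be compared between copies.

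RpS19b had the smallest p of all members for the knockdown with dsDNA. It read 3.51 and 2.81 in dSTING RNAi dsDNA cells, 3.13 and 3.52 in dSTING RNAi mock cells, 1.99 and 2.44 in control dsDNA cells, and 2.78 and 2.85 in control mock cells. Both RNAi dsDNA arrays exceeded both control dsDNA arrays, and over both treatments the RNAi and control arrays overlapped. The difference was 0.37 with dsDNA (SE 0.11, limma adjusted p = 1) and 0.27 on the mean (SE 0.08, adjusted p = 0.993). In mock cells the knockdown difference was 0.18 (SE 0.11). With each array left out in turn the difference with dsDNA lay between 0.25 and 0.49, at 0.49 without dSTING RNAi dsDNA 2. The mean knockdown difference then lay between 0.21 and 0.34. RpS10a read 1.48 and 1.22 in dSTING RNAi dsDNA cells, 1.28 and 1.17 in dSTING RNAi mock cells, 1.65 and 1.61 in control dsDNA cells, and 1.61 and 1.44 in control mock cells. Its mean knockdown difference was -0.17 (SE 0.05, limma adjusted p = 0.993), with 1 RNAi array above the lowest control array, and -0.16 without the 2 arrays that stood apart. Both genes sit close to the floor, where adding 1 compresses differences.

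**Figure D3:**
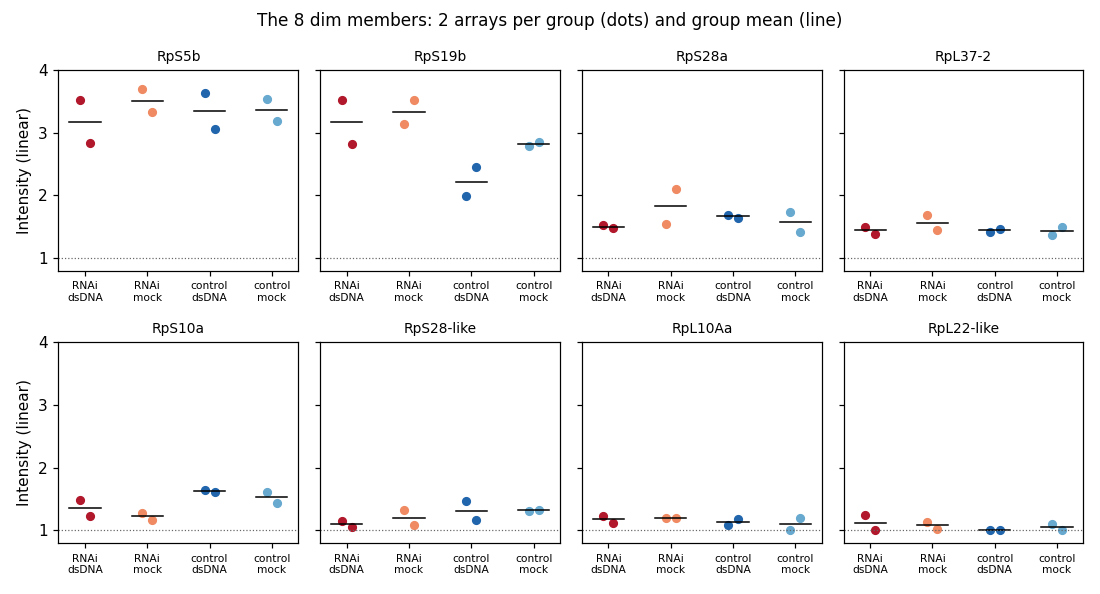
Intensity (linear) of the 8 members whose mean level lay below 3, with 2 arrays per group as dots, the group mean as a line, and the floor of 1 dotted. RpS19b lies at 1.99 to 2.44 on the 2 control dsDNA arrays and at 2.78 to 3.52 on the other 6, and no value exceeds 3.68.

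Brighter members varied less between the arrays of a group than other measurable probe sets. Their pooled within-group SD had a median of 0.075 (range 0.031 to 0.188), against 0.129 for all probe sets above a level of 3, and their highest over lowest intensity had a median of 1.13, against 1.317. For 26 of 33 that ratio was under 1.2, which held for 21.1% of all probe sets above 3. The members are also brighter than most of those probe sets (median intensity 1567, against 24), and the part of brightness in the smaller spread was not tested. The pooled SDs of RpL and RpS genes had medians of 0.076 and 0.065. As a sum, the 33 brighter members gave an intensity of 54709 to 56561, or 13.4% to 13.6% of each array's total. The medians of the arrays also lay close together (1.18 to 1.22), and the normalization is not stated in the labels. Normalization that matches the arrays to one another can hold such a sum near constant. The sum therefore does not test for a change of the whole class.

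The 2 arrays that stood apart held many of the members' extreme values. In 8 of the 33 (RpL10Ab, RpL17, RpL23, RpL29, RpLP2, RpS12, RpS15 and RpS18) dSTING RNAi dsDNA 2 was the lowest of the 8 arrays and control mock 2 the highest (24.2%, against 13% of all probe sets above 3). In 4 (RpL27, RpL39, RpL40 and RpL41) dSTING RNAi dsDNA 2 was the highest and control mock 2 the lowest (12.1%, against 15%). In 27 of 33 the pair deviated from the gene's mean in opposite directions (81.8%, against 80.9%). The within-group SD of the members had a median of 0.079 in the 2 groups that hold these arrays and 0.051 in the other 2 groups, and that of all probe sets above 3 was 0.135 and 0.094 in the same pairs of groups.

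**Figure D4:**
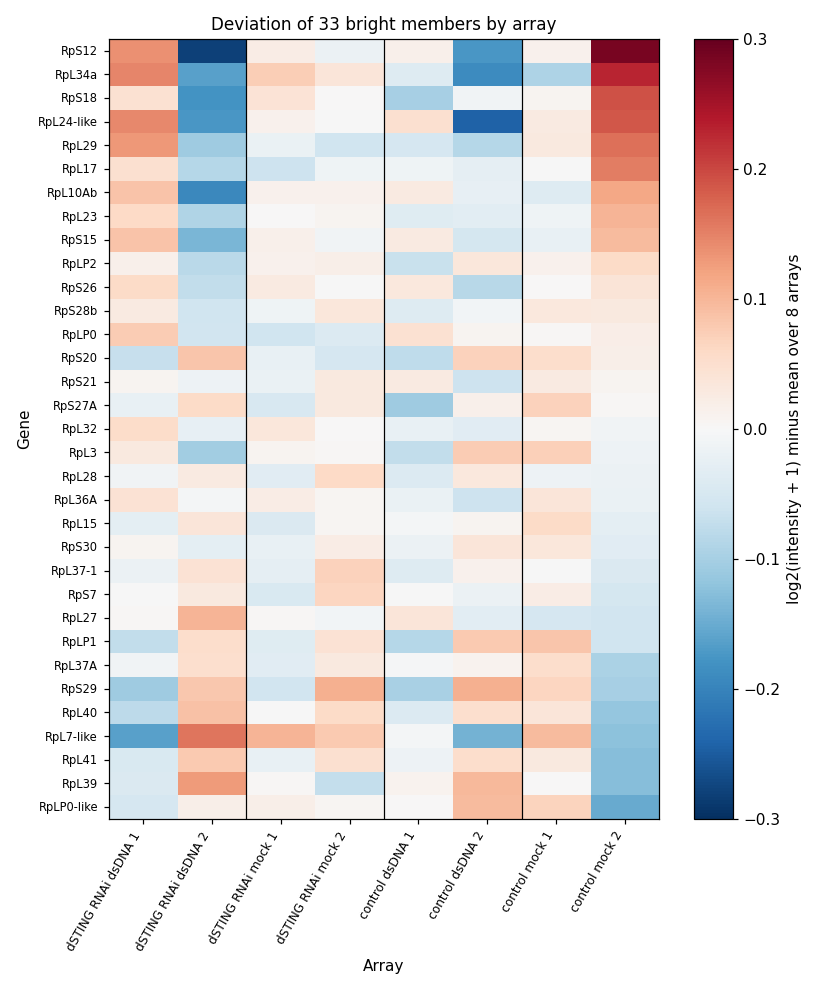
Heat map of log2(intensity + 1) minus the gene's mean over 8 arrays for the 33 brighter members (rows, sorted by control mock 2) on each array (columns, grouped by condition), red above and blue below the mean. The columns of dSTING RNAi dsDNA 2 and control mock 2 carry opposite colours in 27 genes, with RpS12 at -0.28 and 0.29.

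These arrays also differed in a measure of RNA end coverage, the ratio of the 3′ to the 5′ control probe set of a transcript. dSTING RNAi dsDNA 2 had the highest ratio for all 4 transcripts: 23.2 for ACTIN (12.9 to 17.4 on the other 7 arrays), 6.31 for GAPDH (4.9 to 5.67), 25.4 for eIF-4a (16.4 to 21) and 6.63 for 18S rRNA (3.14 to 4.63). Control mock 2 had the lowest ratio for GAPDH, eIF-4a and 18S rRNA, but not for ACTIN (15). The part of this difference in the members' deviations was not tested. Without both arrays, 0 of 41 members passed the adjusted limma threshold in any of the 7 contrasts, with a smallest adjusted p of 0.429. An unadjusted p under 0.05 was then found in 16 of the 287 tests of a member in a contrast (5.57%, against 8.32% of the tests of all probe sets). With all 8 arrays it was found in 4 of 287 (1.39%, against 4.74%). Member medians without both arrays were 0.010 for the mean knockdown and -0.018 for the mean dsDNA difference.

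**Figure D5:**
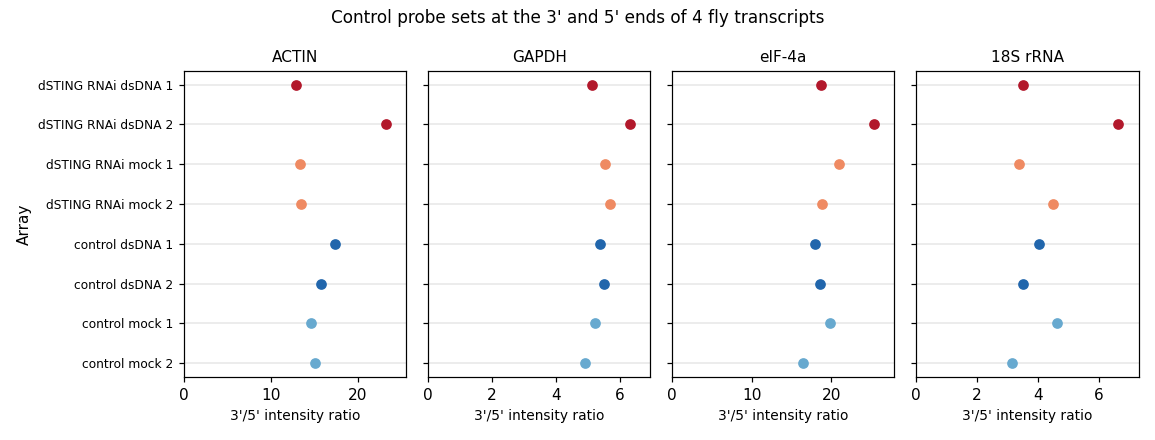
Ratio of 3′ to 5′ intensity for 4 fly transcripts (panels) on each array (rows, coloured by group). dSTING RNAi dsDNA 2 is the highest in every panel, and control mock 2 is the lowest for GAPDH, eIF-4a and 18S rRNA.

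Genes that work with the ribosome did not pass the threshold either. Of the 13 measured among 17 listed genes for elongation and ribosome partners, 0 passed the limma threshold in any contrast. On the mean knockdown, 3 of the 13 had an unadjusted p under 0.05 (4.76% of all probe sets), all lower, and the median was -0.021, or -0.004 for the 11 genes above a level of 3. Among them, bic, the beta subunit of the nascent-chain complex, was at -0.18 (SE 0.06, limma adjusted p = 0.993), and eEF1alpha2, an elongation factor that delivers tRNA, at -0.25 (SE 0.09, adjusted p = 0.993). Both lay close to the floor, with intensities of 2.1 to 3.09 for bic and 1.23 to 2.33 for eEF1alpha2. The other gene of the 3, not named here, had a mean level above 3. pAbp, the poly(A)-binding protein, had intensities of 619 to 726 with dsDNA and 527 to 636 with mock, a difference of 0.20 (SE 0.08, adjusted p = 0.894) that was 0.12 without the 2 arrays that stood apart. Of 38 measured among 42 ribosome biogenesis genes, 0 passed. Ns1, a nucleostemin-family GTPase, was at -0.10 for the mean dsDNA difference (SE 0.03, adjusted p = 0.894) and -0.11 without those 2 arrays. For dsDNA in control cells 27 of the 38 were lower (median -0.063, against 0.000 for all probe sets). In RNAi cells 17 were lower (median 0.024). For the 28 above a level of 3 these medians were -0.060 and -0.026, against -0.028 and 0.005 for all probe sets above it. For the knockdown in mock cells 26 were lower (median -0.052), and 3 had an unadjusted limma p under 0.05 (4.72% of all). Rrp6 was at -0.09 for the mean knockdown (SE 0.02, limma adjusted p = 0.993). Of 15 measured among 18 regulators of ribosomal protein genes, 0 passed. On the mean dsDNA difference 11 of the 15 were higher, where 50.1% of all probe sets were. Their median was 0.079, against 0.000 for all probe sets. For the 9 above a level of 3 it was 0.112, against -0.011 for all probe sets above that level. brat, which encodes a repressor of growth and ribosome synthesis, had the highest value, 0.36 (SE 0.17, adjusted p = 0.894), and 0.16 without those 2 arrays. It lay close to the floor, with intensities of 2.29 to 3.84 with dsDNA and 1.37 to 2.82 with mock. Irbp18, the partner of the stress factor Xrp1 that acts in Minute cells, read 63.5 to 78.6 with dsDNA and 76.9 to 81.6 with mock, at -0.16 (SE 0.06, adjusted p = 0.894), the lowest value of the list, and -0.18 without those 2 arrays.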

How the data were processed

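The authors deposited 1 linear intensity per probe set and array, from a biotin-labelled 3′ in vitro transcription kit per the labels' protocols. Which software, background correction and normalization gave these deposited intensities is not stated in the labels used here. The values never lie under 1, and 19.6% to 24.1% of an array lie at that floor. Of 18952 probe sets, 183 controls were left out and 18769 tested. Platform annotation was updated through gene identifiers. Values were taken as log2(intensity + 1), and limma 3.58.1 in R 4.3.3 fitted 1 mean for each of 4 groups to all 8 arrays (4 residual degrees of freedom, 5.32 after eBayes). Tests were two-sided with Benjamini-Hochberg adjustment over all probe sets in each contrast, and the threshold was 0.05. The fit was tested on simulated data.

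The members and lists were chosen with earlier results of these data known, so no list was tested. Members named were the 3 with the smallest p in each contrast, duplicated families, the extremes of level and SD, and a list of stalk, ubiquitin-fusion and reference genes. A probe set ending in _s_at (14 members) or _a_at (3) can detect several transcripts, so the transcript it reads is uncertain. For _s_at the gene is uncertain too. Another 3 probe sets naming a second gene were left out, and 4 members had further probe sets (RpL3, RpS7, RpS29 and RpS30), of which only RpS29 had another bright one. Alternatives were a replicate block, other normalizations, filters, pseudocount, variance model, array weights, the arrays in the fit and the probe set per gene. The promoter motif count planned was not run, since no promoter sequence was used here.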

Additional observations from a re-analysis of the deposited data

How the results depend on the processing

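Over 20 alternatives 0 members passed the adjusted threshold in any contrast, with a smallest adjusted p of 0.429 (without the 2 arrays that stood apart) and 0.894 in the reported fit. The fit with eBayes trend and robust options gave an unadjusted limma p under 0.05 in 3 of 287 tests of a member. That was 1.05%, against 3.92% of the tests of all probe sets. The reported fit gave 4 of 287 (1.39%, against 4.74%). Of 287 such tests of a member the count was 16 without the 2 arrays that stood apart (5.57%, against 8.32% of the tests of all probe sets). It was 13 without dSTING RNAi dsDNA 1 (4.53%, against 7.13%), 13 without dSTING RNAi dsDNA 2 (4.53%, against 6.16%), and 2 to 7 with another array left out (0.697% to 2.44%, against 5.27% to 7.34%). The cause was not tested. Medians of the members stayed between -0.011 and 0.012 for the mean knockdown and between -0.034 and -0.010 for the mean dsDNA difference. For dsDNA in control cells they stayed between -0.034 and -0.006, and for dsDNA in RNAi cells between -0.042 and 0.005. They ran from -0.030 to 0.027 and from -0.019 to 0.023 for the knockdown with and without dsDNA, and from -0.039 to 0.047 for the interaction. Of 5547 values of the 41 members under alternatives, 590 changed sign and 257 moved by more than 1 SD, and no value was past the threshold. The replicate block, filters, variance model, array weights and fits of only the arrays compared leave each log2 difference unchanged by construction. As a share of 5547, these counts therefore understate how often the other alternatives moved a value.

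Over all probe sets the count past the threshold was 0 in the reported fit. For the mean knockdown it was 2 with median centring, 3 with centring on probe sets above a level of 3, 4 with either filter, 1 with log2(intensity + 16) and 3 with trend and robust options. For the knockdown in mock cells it was 2 with that centring and 3 with either filter, and for the knockdown with dsDNA 3 with either filter. The filters test fewer probe sets (9384 and 4189). None of these calls was a member.

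With the replicate number as a replicate block, 0 members passed. Both replicate numbers occur in every group, so the block cannot change a difference. The median for the mean dsDNA difference was therefore the same as in the reported fit, -0.022. The correlations of same-numbered arrays ran from -0.737 to 0.384, so the numbers were not taken to pair the arrays. Members near the floor are limited by signal. The promoter motif count was not run.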
